A study of Homo sapiens with 70 samples.

Results

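The genes described here are 7 genes that control the sterol regulatory element-binding proteins (SREBPs): SREBF1, SREBF2, SCAP, INSIG1, INSIG2, MBTPS1 and MBTPS2. They were chosen by symbol, with earlier results of these data known, from 20090 gene symbols in RNA-seq tables of Hep3B and Huh7, 2 human hepatoma cell lines. All 7 were present, on 10 of the 32321 transcript rows, and each of the 10 rows had a nonzero count in 70 of 70 libraries. Cells received 5 µM GW3965 together with 2 µM sorafenib, 2 µM sorafenib alone, 5 µM GW3965 alone, or the solvent DMSO, and poly-A RNA was taken after 24 h. GW3965 is an agonist of the liver X receptors (LXRs), nuclear receptors that sense oxysterols, and sorafenib is an inhibitor of several protein kinases, among them RAF kinases. In Hep3B each of the 4 groups had 9 libraries. In Huh7 there were 9 libraries with both drugs, 9 labelled sorafenib, 8 labelled GW3965 and 8 with DMSO. The libraries are numbered within a group, and nothing says that they came from separate cultures, so the p-values measure the spread between libraries, which may be technical.

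The deposited tables hold comparisons and no value of a single library. Each drug group was set against DMSO of the same line with edgeR, giving a log2 fold change (drug over DMSO), a p-value and a false discovery rate (FDR). A gene is said to rise or fall where the FDR was under 0.05. Levels of a group, in counts scaled to the size of the library (CPM), were worked out from the deposited mean level and fold change and have no error of their own. The share of genes called is given over 11444 genes of at least 2 CPM, a minimum that all 7 genes passed.

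The labels of the Huh7 single-drug groups went against the drugs' known target genes. Transporter gene ABCG1, an LXR target, stood at 0.75 in the group labelled GW3965 and at 3.82 in the group labelled sorafenib in the authors' deposited tables of Huh7 (log2 fold changes), against 5.99 with GW3965 and 0.59 with sorafenib in those of Hep3B. DUSP6, a phosphatase gene switched on by ERK signalling, fell by 1.70 in Huh7 labelled GW3965 and stood at -0.02 in Huh7 labelled sorafenib, while in Hep3B it stood at 0.33 with GW3965 and at -2.40 with sorafenib (log2, authors' deposited tables). ABCA1, MYLIP, SPRY4 and EGR1 gave the same split. The Huh7 groups are therefore called by their labels throughout, and a direction read from either of them belongs to "the group labelled" so. With both drugs ABCG1 stood at 6.46 in Hep3B and 4.37 in Huh7, and DUSP6 at -2.55 in Hep3B and -1.68 in Huh7, in the authors' deposited tables, so these groups showed the target genes of both drugs. Of the hepatocyte genes, ALB reached between 1626 and 9446 CPM over the 8 groups, and the leukocyte gene PTPRC, the endothelial gene PECAM1 and the stromal gene ACTA2 stayed under 1 CPM in every group. The stromal gene COL1A1 ran from 0.534 to 21.4 CPM.

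SREBPs are transcription factors made as membrane proteins of the endoplasmic reticulum, where each is bound to the escort protein SCAP. When membrane sterol is plentiful, the INSIG proteins hold SCAP and its cargo in place. When sterol is scarce, SCAP carries the SREBP to the Golgi, where the site-1 protease (MBTPS1) and then the site-2 protease (MBTPS2) release the part that enters the nucleus. SREBF2 encodes SREBP-2, which mainly drives sterol synthesis and uptake, and SREBF1 encodes the SREBP-1 forms, of which SREBP-1c drives fatty acid synthesis in liver and is switched on by LXRs. INSIG1 is itself an SREBP target, so the braking protein rises and falls with the pathway, while INSIG2 is less dependent on it. RNA of these genes does not report cleavage, which is how the pathway is switched.

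The bases just before the annotated starts of the 7 genes were searched for letters that SREBPs and other factors read. Bases elsewhere were not searched. The windows are the 250 bases before the start, from RefSeq on GRCh38.p14, and all 7 genes had one (8 windows, as INSIG2 has 2). The tables rest on an older build (hg19 or GRCh37, per the submitters' processing notes), so the windows were matched by symbol only. Printed first are SREBF2, which holds a sterol element and an NF-Y box, and INSIG1, which holds an E-box and an NF-Y box but no sterol element. SREBF1 and INSIG2, which hold none of the marked motifs, follow. Capitals mark matches, on either strand, to the sterol element TCACNCCAC, the E-box CACGTG and the NF-Y box CCAAT. SREBF2 lies at chr22:41832855-41833104 (plus strand), INSIG1 at chr7:155297628-155297877 (plus strand), SREBF1 at chr17:17836987-17837236 (minus strand) and INSIG2 at chr2:118088221-118088470 (plus strand, the first of its windows).
SREBF2: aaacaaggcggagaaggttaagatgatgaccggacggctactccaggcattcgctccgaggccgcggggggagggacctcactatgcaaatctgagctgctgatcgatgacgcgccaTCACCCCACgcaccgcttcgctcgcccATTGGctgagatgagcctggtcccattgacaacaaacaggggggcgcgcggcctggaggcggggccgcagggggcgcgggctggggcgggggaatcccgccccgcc
INSIG1: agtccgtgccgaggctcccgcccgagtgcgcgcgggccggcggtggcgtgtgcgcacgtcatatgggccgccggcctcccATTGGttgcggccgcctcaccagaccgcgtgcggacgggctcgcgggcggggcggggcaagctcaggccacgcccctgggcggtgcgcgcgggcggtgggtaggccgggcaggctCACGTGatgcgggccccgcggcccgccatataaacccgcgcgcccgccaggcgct
SREBF1: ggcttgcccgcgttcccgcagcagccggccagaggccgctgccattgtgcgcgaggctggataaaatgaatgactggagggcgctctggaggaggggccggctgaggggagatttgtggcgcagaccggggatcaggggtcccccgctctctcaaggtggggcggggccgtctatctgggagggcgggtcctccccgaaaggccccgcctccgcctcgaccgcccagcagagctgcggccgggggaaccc
INSIG2: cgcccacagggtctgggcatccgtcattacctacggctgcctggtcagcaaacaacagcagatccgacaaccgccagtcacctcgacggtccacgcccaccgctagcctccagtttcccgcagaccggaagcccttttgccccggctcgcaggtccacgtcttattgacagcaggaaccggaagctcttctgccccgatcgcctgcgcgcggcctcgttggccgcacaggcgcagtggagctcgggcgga

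SREBF2 held the strict sterol element TCACCCCAC from 133 to 125 bases before its start, together with an NF-Y box from 106 to 102. Of 35116 RefSeq windows of the same length, 0.362% held TCACCCCAC, 0.883% the looser TCACNCCAC and 32.0% the NF-Y box. In INSIG1 the E-box stood from 55 to 50 bases before the start and the NF-Y box from 170 to 166. SCAP (chr3:47475942-47476191, minus strand) also had an E-box, from 58 to 53 bases before its start, and 6.34% of all windows hold one. The Sp1 box GGGCGG, found in 42.6% of windows, was matched 5 times in INSIG1, with 2 of the matches sharing a base, 3 times in SREBF1, 3 times in SCAP, 2 times in SREBF2 and once in each INSIG2 window. MBTPS1 (chr16:84116943-84117192, minus strand) and MBTPS2 (chrX:21839367-21839616, plus strand) held none of the 8 motifs searched. None of the 7 genes held the nuclear receptor core AGGTCA (12.1% of windows), the LXR direct repeat (0.0142%) or the ATF4 composite TGATGNAAT (0.888%). A match is a description of letters, and a missing match says only that these letters are not in this window.

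**Figure D1:**
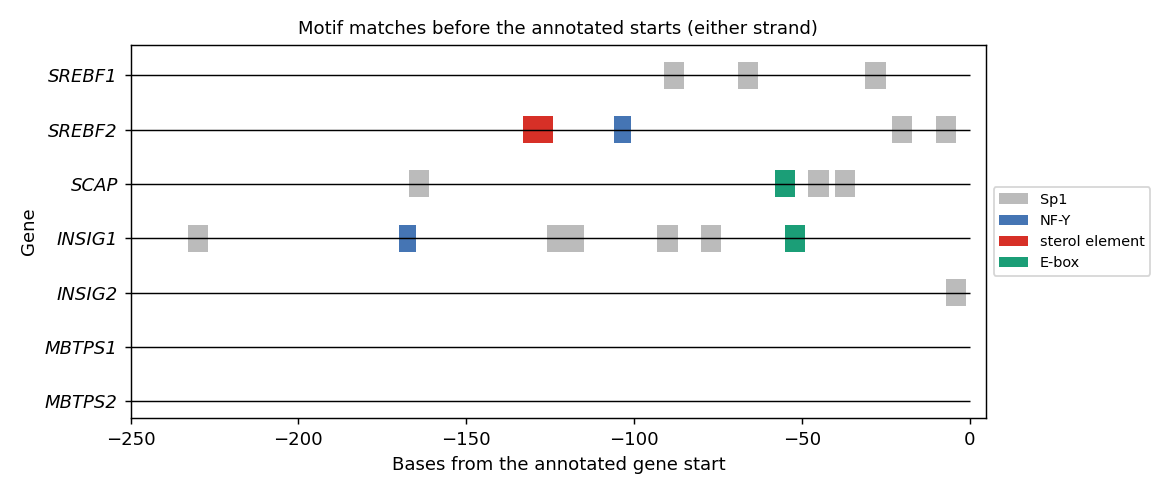
Motif matches in the 250 bases before the annotated start of each gene (x axis, bases from the start; 1 row per gene, first window of INSIG2), with coloured bars for each match on either strand. SREBF2 alone shows a sterol element, INSIG1 and SCAP show an E-box, and MBTPS1 and MBTPS2 show no bar.

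Where SREBF1 begins matters for reading its RNA. GENCODE v29 places the starts of the transcripts paired with NM_004176 and NM_001005291 at 17837002 and 17836987 on chromosome 17 (GRCh38, minus strand), 15 bases apart. It places a shorter SREBF1 transcript of 3696 bases at 17819951, 17051 bases downstream of the first. The tables hold only the 2 rows with the upstream start, and in the authors' deposited tables their log2 fold changes differed by at most 0.000598 over the 6 comparisons. The rows therefore do not separate the transcripts that begin at the different starts, and the window printed for SREBF1 is that of the upstream start. The miRNA gene MIR33B, which lies within SREBF1, had a nonzero count in 26 libraries and a mean log2 CPM of at most -2.03 in the authors' deposited tables, too low to describe. The 3 INSIG1 rows (NM_005542, NM_198336 and NM_198337) differed by at most 0.0356 in log2 fold change in the authors' deposited tables.

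Levels were first set side by side per kilobase of transcript, since longer transcripts yield more reads. In Hep3B with DMSO, SREBF2 led at 31.1 CPM per kb, followed by SREBF1 (20.6), SCAP (15.1), MBTPS1 (15.0), INSIG1 (11.5), INSIG2 (8.57) and MBTPS2 (5.91). In Huh7 with DMSO, INSIG1 led at 37.2 CPM per kb, followed by SREBF1 (29.9), SREBF2 (27.7), SCAP (25.2), MBTPS1 (20.5), MBTPS2 (8.14) and INSIG2 (4.23). The 2 lines thus differed most in the INSIG genes, and the places of SCAP and MBTPS1 in Hep3B were nearly level. The DMSO level of each of the 7 genes, worked out separately from the 3 tables of a line, differed by at most 0.0868 on the log2 scale. The median gene of at least 2 CPM already differed by up to 0.0802 in Hep3B and 0.0455 in Huh7. The 3 tables share the DMSO libraries, so these differences do not measure the spread between libraries, and the error of a level is unknown. For INSIG1 both the level and the length were taken from NM_198336, as the representative row (NM_005542) had no length match. With DMSO the NM_198336 row had 30.1 CPM in Hep3B and 97.6 CPM in Huh7, against 35.4 and 114 CPM for the representative row. All values and ratios of INSIG1 per kb rest on that lower row.

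With DMSO alone, INSIG1 had 35.4 CPM in Hep3B and 114 CPM in Huh7, a log2 difference of -1.68 (Hep3B over Huh7). INSIG2 went the other way, with 22.2 CPM in Hep3B and 11.0 CPM in Huh7 (log2 1.02). SCAP (-0.74), SREBF1 (-0.54), MBTPS2 (-0.46) and MBTPS1 (-0.45) were lower in Hep3B, and SREBF2 (0.17) was close to the median gene (0.08). No test was possible across lines, because no table compares them. The ratio of INSIG1 to INSIG2 per kb was 1.34 in Hep3B with DMSO and 8.80 in Huh7 with DMSO.

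**Figure D2:**
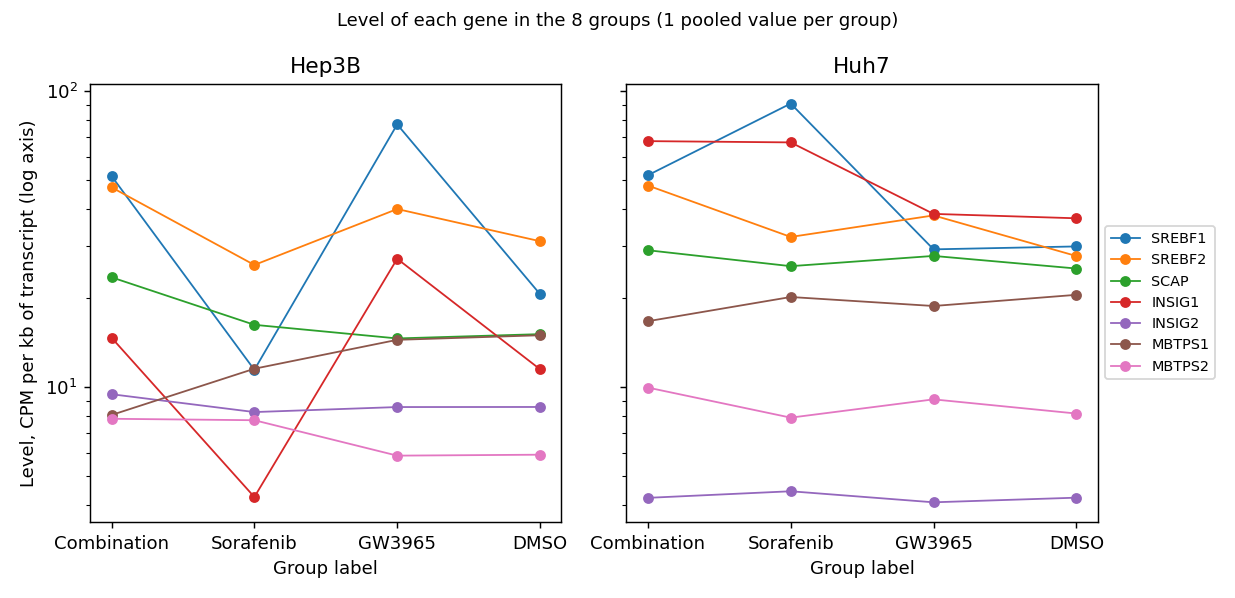
Level of each gene in the 4 groups of Hep3B and of Huh7 (y axis, CPM per kb of transcript, log axis; 1 pooled value per group, with no error, joined by lines only to guide the eye). SREBF1 spans 11.4 to 77.3 and INSIG1 4.25 to 27.2 in Hep3B, while INSIG2 stays between 8.24 and 9.46 there and between 4.08 and 4.45 in Huh7.

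GW3965 alone raised the RNA of both SREBP genes and of INSIG1 in Hep3B and left the transport and protease genes near their DMSO level. Of the 7 genes, 3 rose and 0 fell, where 7.12% of all genes tested rose and 3.64% fell. SREBF1 stood at 329 CPM with GW3965 and 87.7 CPM with DMSO, a log2 fold change of 1.96 (approximate 95% interval 1.85 to 2.06), whose edgeR FDR is listed as 0 in the authors' deposited table. This is a 3.89-fold rise, the highest fold among the 7 genes in that comparison. INSIG1 reached 83.6 CPM with GW3965, against 35.4 CPM with DMSO, which is 1.29 on the log2 scale (1.15 to 1.44, edgeR FDR = 8.03e-64 in the authors' deposited table). SREBF2 had 210 CPM with GW3965 and 163 CPM with DMSO, a smaller log2 change of 0.41 (edgeR FDR = 4.01e-18, authors' deposited table). SCAP (0.00), MBTPS1 (0.00), MBTPS2 (0.04) and INSIG2 (0.05) were not called in the authors' deposited table, and their approximate 95% intervals lay within -0.11 to 0.18. With GW3965 the per-kb ratio of INSIG1 to INSIG2 was 3.17, and that of SREBF1 to SREBF2 was 1.93, against 0.662 with DMSO.

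Sorafenib alone lowered 4 of the 7 genes in Hep3B and raised 1, where 28.1% of all genes tested fell and 22.9% rose. INSIG1 had 13.1 CPM with sorafenib and 35.4 CPM with DMSO, a log2 fold change of -1.47 (approximate 95% interval -1.77 to -1.18, edgeR FDR = 4.35e-21 in the authors' deposited table). That left the INSIG1 to INSIG2 ratio per kb at 0.516, the only one of the 8 groups under 1. SREBF1 fell to 48.7 CPM with sorafenib, against 87.7 CPM with DMSO (log2 -0.88, edgeR FDR = 1.55e-17, authors' deposited table). In the authors' deposited table MBTPS1 fell by 0.40 (log2, edgeR FDR = 0.00331) and SREBF2 stood at -0.29 (edgeR FDR = 0.0460). The SREBF2 call is lost at an FDR threshold of 0.01. MBTPS2, the protease that acts after MBTPS1, rose by 0.36 (edgeR FDR = 0.00335, authors' deposited table), so the 2 proteases moved in opposite directions. SCAP (0.08) and INSIG2 (-0.09) were not called in the authors' deposited table. Of the 6 hepatocyte genes 3 fell and 1 rose with sorafenib, and their part in these results was not tested.

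With both drugs in Hep3B, 5 of the 7 genes rose and 1 fell, where 35.8% of all genes tested rose and 35.8% fell. SREBF1 had 220 CPM with both drugs and 87.7 CPM with DMSO (log2 1.30, edgeR FDR = 1.16e-62, authors' deposited table). SCAP had 103 CPM with both drugs and 66.4 CPM with DMSO, a rise of 0.61 (approximate 95% interval 0.44 to 0.78, edgeR FDR = 1.44e-11, authors' deposited table) in a gene that passed the test with neither drug alone. SREBF2 reached 248 CPM with both drugs, against 163 CPM with DMSO (log2 0.58, edgeR FDR = 1.37e-12, authors' deposited table). The protease genes again split, since MBTPS1 had 34.9 CPM with both drugs and 65.0 CPM with DMSO (log2 -0.92, edgeR FDR = 2.16e-16), while MBTPS2 had 34.6 CPM with both drugs and 26.2 CPM with DMSO (log2 0.38, edgeR FDR = 4.98e-07) in the authors' deposited table. INSIG1 stood at 46.1 CPM with both drugs and 35.4 CPM with DMSO, a rise of 0.36 (edgeR FDR = 6.20e-04, authors' deposited table). INSIG2 did not pass the test (0.12, edgeR FDR = 0.204, authors' deposited table). In the same comparison all 6 hepatocyte genes of a short list fell (median log2 -1.29), among them TTR (-1.89), APOB (-1.79) and AFP (-1.79) in the authors' deposited table. The part of this shift in the results for the 7 genes was not tested.

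**Figure D3:**
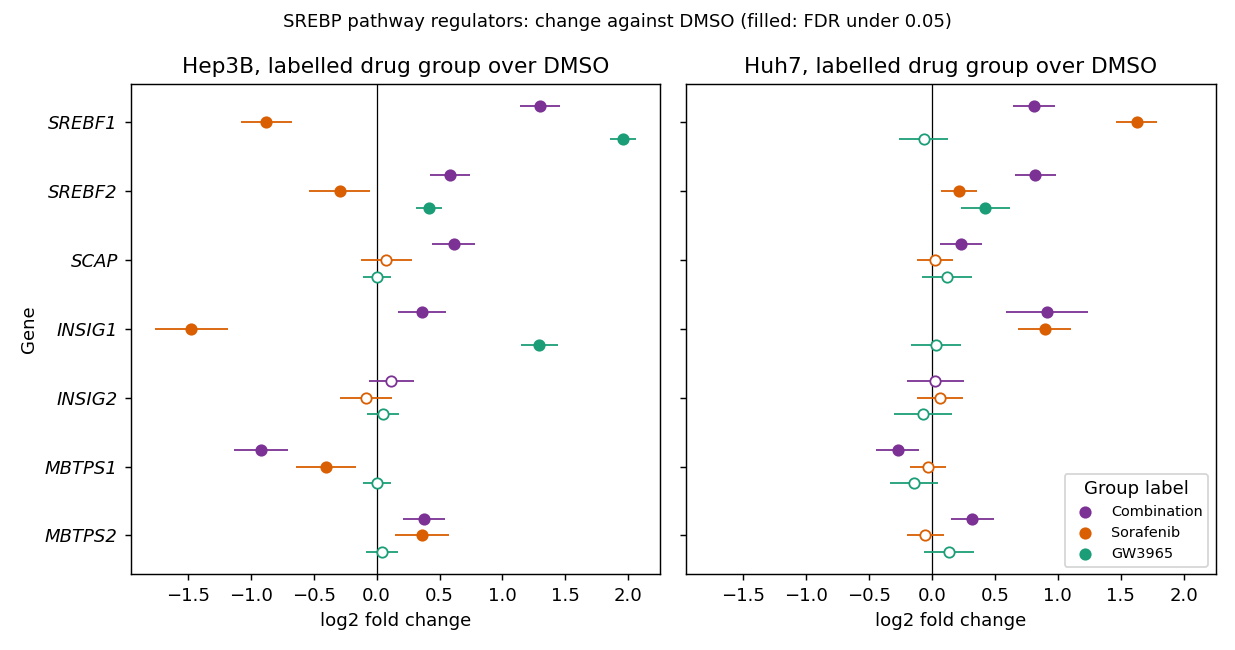
The log2 fold change of each gene against DMSO (x axis) in Hep3B and Huh7, by group label, with approximate 95% intervals and filled points where the FDR was under 0.05. The intervals rest on the deposited p-values, or on the median error of genes of similar level where that was larger or p was above 0.5. SREBF1 and INSIG1 spread widest, INSIG2 stays within -0.09 and 0.12, and in Huh7 the wide move of SREBF1 (1.63) is in the group labelled sorafenib.

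In Huh7 the same genes moved in the group labelled sorafenib, with 3 rising and 0 falling, where only 1.94% of all genes tested rose and 1.21% fell. SREBF1 had 387 CPM in the group labelled sorafenib and 127 CPM with DMSO, a log2 fold change of 1.63 (approximate 95% interval 1.46 to 1.79, edgeR FDR = 2.13e-82 in the authors' deposited table). INSIG1 had 210 CPM there and 114 CPM with DMSO (log2 0.90, edgeR FDR = 4.80e-14, authors' deposited table). SREBF2 rose by 0.22 (edgeR FDR = 0.00956, authors' deposited table). These are the 3 genes that rose with GW3965 in Hep3B, in the same order of size. The share of all genes that rose in both of these comparisons is not given here. SCAP (0.02), MBTPS1 (-0.03), MBTPS2 (-0.05) and INSIG2 (0.06) were not called in the authors' deposited table, each with an edgeR FDR of 1.

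In the Huh7 group labelled GW3965, 1 of the 7 genes rose and 0 fell, where 13.4% of all genes tested rose and 17.5% fell. That gene was SREBF2, with 199 CPM in the group labelled GW3965 and 145 CPM with DMSO (log2 0.42, edgeR FDR = 4.28e-05, authors' deposited table). SREBF1 (-0.07, edgeR FDR = 0.952) and INSIG1 (0.03, edgeR FDR = 1) were not called in the authors' deposited table. The approximate 95% interval of INSIG1 ran from -0.16 to 0.23, so a fall as large as that with sorafenib in Hep3B lies outside it. No fall of INSIG1 was seen in either Huh7 single-drug table, whichever way the labels are read. In the group labelled GW3965 the hepatocyte genes TTR (-0.81) and APOB (-0.68) fell, APOA1 (0.48) and ALB (0.35) rose, and the stromal gene COL1A1 rose by 0.87 (edgeR FDR = 0.00128) in the authors' deposited table, and their part in these results was not tested.

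With both drugs in Huh7, 5 of the 7 genes rose and 1 fell, where 34.9% of all genes tested rose and 26% fell. They were the same genes as in Hep3B, and the share of all genes called alike in both lines is not given here. SREBF2 had 252 CPM with both drugs and 145 CPM with DMSO, and its log2 fold change of 0.82 (edgeR FDR = 1.12e-30, authors' deposited table) matched that of SREBF1 (0.81, edgeR FDR = 1.66e-19). INSIG1 had 211 CPM with both drugs and 114 CPM with DMSO (log2 0.91, edgeR FDR = 1.98e-07, authors' deposited table). In the authors' deposited table MBTPS2 rose by 0.32 (edgeR FDR = 2.12e-04), SCAP rose by 0.23 (edgeR FDR = 0.0164) and MBTPS1 fell by 0.27 (edgeR FDR = 0.00521). The SCAP call is lost at a threshold of 0.01. The median gene of this table stood at 0.16 over all genes and at 0.06 over genes of at least 2 CPM, against which small rises are to be read. Of the 6 hepatocyte genes, 5 fell in the authors' deposited table, led by TTR (-1.59) and AFP (-1.16). Of the 4 markers of other cell types, the stromal gene COL1A1 rose by 0.99 (edgeR FDR = 0.00375) and PECAM1, under 1 CPM, stood at -1.76 in the authors' deposited table. The part of these markers in the results was not tested.

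Across all 6 comparisons INSIG2, the paralog of INSIG1, was called in none. Its log2 fold changes in the authors' deposited tables ran from -0.09 to 0.12, and the approximate 95% intervals over the 6 comparisons lay within -0.30 to 0.29. Its level ran from 21.3 to 24.5 CPM in Hep3B and from 10.6 to 11.5 CPM in Huh7. INSIG1 ran from 13.1 to 83.6 CPM in Hep3B and from 114 to 211 CPM in Huh7. With both drugs the per-kb ratio of INSIG1 to INSIG2 was 1.55 in Hep3B and 16.1 in Huh7.

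Whether the drugs together differed from each alone was tested on differences of the log2 fold changes. The standard error of each fold change was worked out from its p-value. The median error of genes of similar level was used where it was larger or where p was above 0.5. These tests are therefore approximate, with Benjamini-Hochberg adjustment over all genes tested. The comparisons share the DMSO libraries of their line, which cancel in the difference between both drugs and a single drug. The standard errors (SE) there are therefore larger than the true ones, and a real difference can be missed. With part of each variance assigned to the DMSO libraries, 6 of the 7 genes differed between both drugs and GW3965 alone in Hep3B. The share of all genes called under that setting is not given here, so this count describes the setting and not the 7 genes. Set against GW3965 alone in Hep3B, both drugs gave a different value for 5 of the 7 genes, where 63.8% of all genes tested did. SREBF1 was lower with both drugs (220 CPM with both drugs and 329 CPM with GW3965, difference -0.66, SE 0.0968, adjusted p = 6.99e-11). INSIG1 was also lower (46.1 CPM with both drugs and 83.6 CPM with GW3965, difference -0.94, SE 0.123, adjusted p = 2.17e-13). MBTPS1 differed by -0.92 (adjusted p = 5.68e-13), SCAP by 0.61 (adjusted p = 2.68e-08) and MBTPS2 by 0.33 (adjusted p = 0.00366). SREBF2 (0.17, approximate 95% interval -0.02 to 0.36) and INSIG2 (0.07) did not pass.

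Set against sorafenib alone in Hep3B, both drugs again gave a different value for 5 genes, where 31.1% of all genes tested did. SREBF1 had 220 CPM with both drugs and 48.7 CPM with sorafenib (difference 2.18, SE 0.131, adjusted p = 2.32e-58). INSIG1 had 46.1 CPM with both drugs and 13.1 CPM with sorafenib (difference 1.83, SE 0.178, adjusted p = 1.16e-21). SREBF2 differed by 0.87 (adjusted p = 1.53e-07), SCAP by 0.53 (adjusted p = 7.56e-04) and MBTPS1 by -0.51 (adjusted p = 0.00842). MBTPS2 did not pass (34.6 CPM with both drugs and 34.2 CPM with sorafenib, difference 0.02, approximate 95% interval -0.25 to 0.29).

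The value with both drugs was also set against the sum of the single-drug log2 changes, which effects that add on the log2 scale would give. In Hep3B 4 of the 7 genes departed from that sum, where 22.2% of all genes tested did. SCAP had the smallest adjusted p of these, with 0.61 for both drugs and a sum of 0.08 (departure 0.53, SE 0.147, adjusted p = 0.00359). INSIG1 stood at 0.36 with both drugs, above its sum of -0.18 (departure 0.54, adjusted p = 0.0306). SREBF2 was above its sum by 0.46 (adjusted p = 0.0209), and MBTPS1 differed from its sum by -0.51 (adjusted p = 0.0190). At a threshold of 0.01 SCAP alone remained called. For SREBF1 the opposite single-drug changes of 1.96 and -0.88 in the authors' deposited tables add to 1.08, and the 1.30 seen with both drugs did not depart from it beyond its error (0.22, approximate 95% interval -0.06 to 0.50).

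In Huh7, both drugs differed from the group labelled GW3965 in 3 of the 7 genes, where 30% of all genes tested did. These were SREBF1 (221 CPM with both drugs and 124 CPM in the group labelled GW3965, difference 0.88, adjusted p = 2.78e-09), INSIG1 (difference 0.88, adjusted p = 8.70e-05) and SREBF2 (difference 0.40, adjusted p = 0.0121). The SREBF2 call is lost at a threshold of 0.01 and after subtraction of the median gene (0.29, adjusted p = 0.0772). Compared with the group labelled sorafenib, 3 genes differed, where 47.1% of all genes tested did. SREBF1 was lower with both drugs, at 221 CPM with both drugs and 387 CPM in the group labelled sorafenib (difference -0.82, SE 0.120, adjusted p = 1.72e-10). SREBF2 (difference 0.60, adjusted p = 3.98e-07) and MBTPS2 (difference 0.37, adjusted p = 0.00428) were higher with both drugs. INSIG1 did not pass (difference 0.02, approximate 95% interval -0.37 to 0.40). Of the 7 genes only SREBF1 departed from the sum of the single-drug changes in Huh7, where 21.2% of all genes tested did. It stood at 0.81 with both drugs against a sum of 1.56 (departure -0.75, SE 0.157, adjusted p = 7.45e-05).

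**Figure D4:**
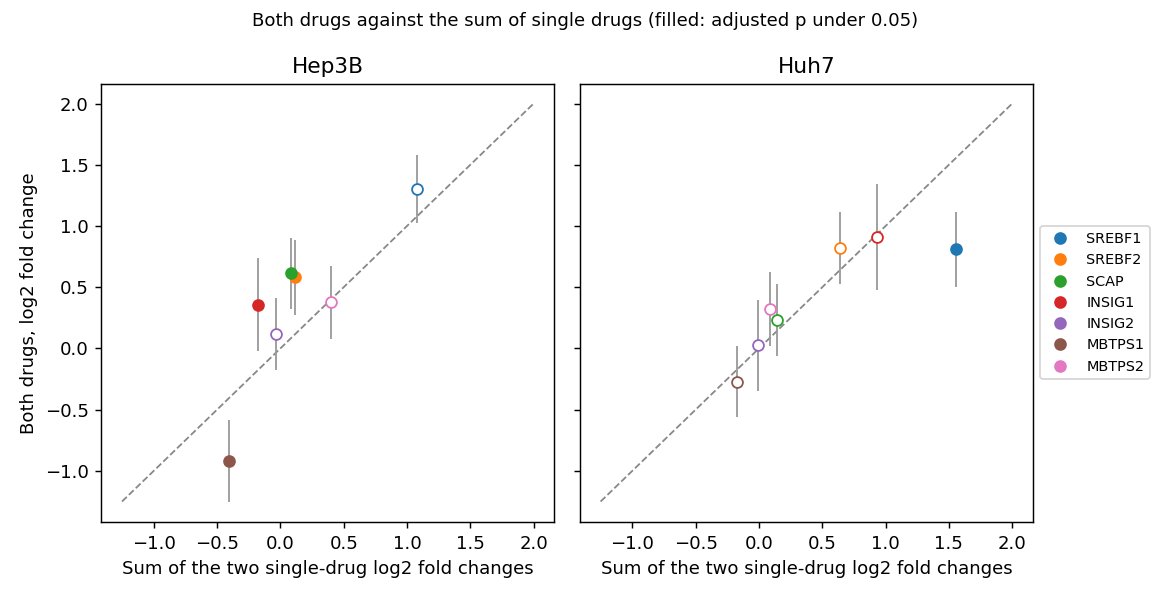
The log2 fold change with both drugs (y axis) against the sum of the single-drug log2 fold changes (x axis) for each gene in each line, with approximate 95% intervals of the departure from the dashed line of equality and filled points where its adjusted p was under 0.05. In Hep3B SCAP, SREBF2 and INSIG1 lie above the line and MBTPS1 below it, and in Huh7 SREBF1 (0.81 against 1.56) lies below it.

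The lines were compared label by label, with the difference given as Hep3B minus Huh7. For the label GW3965, SREBF1 (2.03) and INSIG1 (1.26) differed, 2 of the 7 genes, where 24.8% of all genes tested did. For the label sorafenib 5 of the 7 differed, where 35.9% of all genes tested did, with SREBF1 at -2.50 and INSIG1 at -2.37. The label conflict in Huh7 touches both of these. With both drugs, where the labels are not in doubt, 4 of the 7 genes differed and 44% of all genes tested did. SREBF1 responded more in Hep3B (log2 1.30 in Hep3B and 0.81 in Huh7, difference 0.49, adjusted p = 1.95e-04), and so did SCAP (0.61 in Hep3B and 0.23 in Huh7, difference 0.38, adjusted p = 0.00623). INSIG1 rose less in Hep3B (0.36 in Hep3B and 0.91 in Huh7, difference -0.56, adjusted p = 0.0110), and MBTPS1 fell further there (-0.92 in Hep3B and -0.27 in Huh7, difference -0.65, adjusted p = 2.38e-05). SREBF2 did not pass (difference -0.24, adjusted p = 0.0793).

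Across labels, a comparison added after the data were seen, the Hep3B response to GW3965 and the Huh7 response labelled sorafenib differed in 1 of the 7 genes, where 1.73% of all genes tested differed. That gene was SREBF1 (1.96 in Hep3B and 1.63 in Huh7, difference 0.33, adjusted p = 0.0437), a call lost at a threshold of 0.01 and after subtraction of the median gene (0.30, adjusted p = 0.103). INSIG1 did not pass (difference 0.40, adjusted p = 0.0979). The Hep3B response to sorafenib and the Huh7 response labelled GW3965 differed in 3 of the 7 genes, where 19.4% of all genes tested differed. INSIG1 (-1.47 in Hep3B and 0.03 in Huh7, difference -1.51, adjusted p = 2.64e-14), SREBF1 (difference -0.81, adjusted p = 8.50e-07) and SREBF2 (-0.29 in Hep3B and 0.42 in Huh7, difference -0.72, adjusted p = 1.40e-04) were lower in Hep3B.

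The genes that SREBPs switch on were set beside the regulators. A list of 12 sterol genes held 11 enzymes of cholesterol synthesis, among them HMGCS1 and DHCR7, and the sterol carrier STARD4. The medians of all genes given beside the lists include genes under 2 CPM, which the lists leave out. Over genes of at least 2 CPM the median was -0.03 with sorafenib in Hep3B and 0.06 with both drugs in Huh7. In Hep3B with GW3965, 12 of 12 rose (median log2 0.72, median of all genes -0.02), led by MVD (1.13), LSS (1.01) and STARD4 (0.92) in the authors' deposited table. With sorafenib alone 12 of 12 fell (median -1.01, median of all genes 0.09), led by HMGCS1 (-1.21), MVK (-1.18) and STARD4 (-1.13) in the authors' deposited table. In Hep3B with both drugs 2 rose and 5 fell (median -0.21, median of all genes -0.06), among them LSS (-1.32), FDPS (-0.52) and CYP51A1 (0.45) in the authors' deposited table. Among all genes tested in Hep3B, 7.12% rose with GW3965, 28.1% fell with sorafenib, and 35.8% rose and 35.8% fell with both drugs. The 5 falls of 12 with both drugs are therefore near the background. The list's median lay below 0 with both drugs in Hep3B, while SREBF1, SREBF2, SCAP and INSIG1 rose. In Huh7 10 rose and 0 fell with both drugs (median 0.46, median of all genes 0.16), 7 rose and 0 fell in the group labelled sorafenib (median 0.29, median of all genes 0.01) and 4 rose and 0 fell in the group labelled GW3965 (median 0.19, median of all genes -0.07). MVD (1.11 with both drugs, 1.04 in the group labelled sorafenib) and LSS (0.89 with both drugs, 0.70 in the group labelled sorafenib) led those rises in the authors' deposited tables. Of all genes tested in Huh7, 34.9% rose with both drugs, 1.94% in the group labelled sorafenib and 13.4% in the group labelled GW3965.

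Among 11 genes of fatty acid and triglyceride synthesis, 6 rose and 3 fell in Hep3B with both drugs (median log2 0.31, median of all genes -0.06). GPAM (1.85), which starts glycerolipid synthesis, ME1 (1.71), a source of NADPH, and ACACA (1.17), the acetyl-CoA carboxylase, led the rises in the authors' deposited table. GW3965 alone raised 11 of 11 in Hep3B (median 1.07), with FASN (2.00), SCD (1.97) and GPAM (1.58) highest in the authors' deposited table. With sorafenib alone 8 fell and 3 rose (median -0.74), FASN (-1.22) and SCD (-1.16) falling and ME1 (1.06) rising in the authors' deposited table. In Huh7 7 rose and 1 fell with both drugs (median 0.90), 9 rose and 0 fell in the group labelled sorafenib (median 0.74), and 3 rose and 0 fell in the group labelled GW3965 (median 0.12). The acetyl-CoA synthetase gene ACSS2 rose by 2.05 with both drugs, 1.27 in the group labelled sorafenib and 1.48 in the group labelled GW3965 in the authors' deposited tables of Huh7. Of all genes tested in Hep3B, 35.8% rose and 35.8% fell with both drugs, 7.12% rose with GW3965, and 22.9% rose and 28.1% fell with sorafenib. In Huh7 34.9% rose and 26% fell with both drugs, 1.94% rose in the group labelled sorafenib and 13.4% in the group labelled GW3965. The 3 falls of 11 with both drugs in Hep3B are near the background. The sterol and fatty acid lists and SREBF1 or INSIG1 share libraries in every comparison, so their joint movement is no independent evidence.

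**Figure D5:**
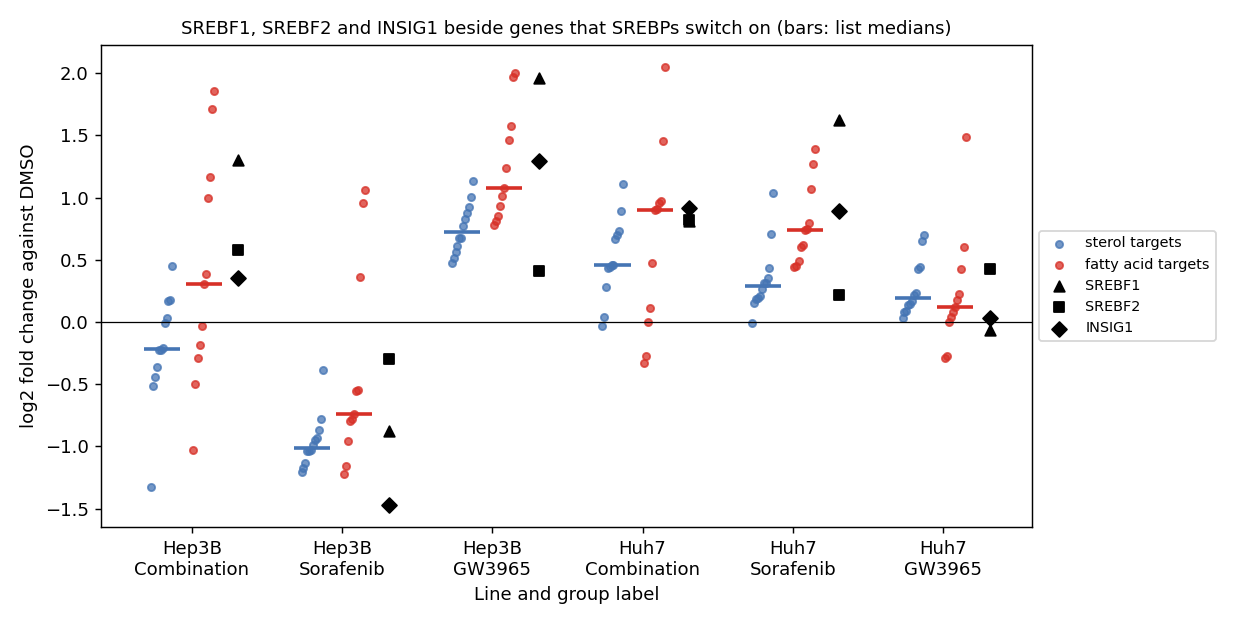
The log2 fold change against DMSO (y axis) of 12 sterol genes and 11 fatty acid genes (points, with bars for list medians) and of SREBF1, SREBF2 and INSIG1 (black symbols) in the 6 comparisons (x axis). In Hep3B with both drugs the sterol median is -0.21 while SREBF1 stands at 1.30, and in the other comparisons of Hep3B SREBF1 and both medians lie on the same side of 0.

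Among 9 other genes that act on SREBP processing or stability, LPIN1, whose protein lipin-1 lowers nuclear SREBP in mouse liver, rose in 5 of the 6 comparisons. Its log2 fold changes were 1.75 with both drugs and 1.54 with GW3965 in Hep3B, and 2.00 with both drugs, 1.05 labelled sorafenib and 0.59 labelled GW3965 in Huh7 (authors' deposited tables). SPRING1, listed under its older symbol C12orf49 and needed for the site-1 protease to mature, fell by 1.20 with both drugs in Hep3B and rose by 1.20 with both drugs in Huh7 in the authors' deposited tables. RNF145, a ubiquitin ligase gene that LXR induces in mouse liver, rose by 0.37 with both drugs and 0.43 with GW3965 and fell by 0.37 with sorafenib in Hep3B in the authors' deposited tables. Of the 9, 2 rose and 4 fell with both drugs in Hep3B (median -0.11), 0 rose and 5 fell with sorafenib (median -0.36), and 3 rose and 0 fell with GW3965 (median 0.08). In Huh7 3 rose and 2 fell with both drugs (median 0.18), 2 rose and 0 fell in the group labelled sorafenib (median -0.04), and 2 rose and 2 fell in the group labelled GW3965 (median -0.14). Among all genes tested in Hep3B, 35.8% rose and 35.8% fell with both drugs, and 22.9% rose and 28.1% fell with sorafenib. With GW3965 7.12% rose and 3.64% fell there. Among those tested in Huh7, 34.9% rose and 26% fell with both drugs. There 1.94% rose and 1.21% fell in the group labelled sorafenib, and 13.4% rose and 17.5% fell in the group labelled GW3965. The counts of this list with both drugs are therefore near the background.

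The site-1 and site-2 proteases also cut stress sensors and related membrane proteins, 7 of which, of 8 listed, reached 2 CPM on average over both lines. ATF6, a sensor of unfolded protein, rose by 1.35 with both drugs and 0.72 with sorafenib in Hep3B and by 0.88 with both drugs in Huh7 in the authors' deposited tables. CREB3L3, a liver factor, rose by 1.79 with both drugs and 0.54 with sorafenib in Hep3B in the authors' deposited tables. GNPTAB, a Golgi enzyme precursor cut by the site-1 protease, fell by 1.10 with both drugs and 0.41 with sorafenib in Hep3B (authors' deposited tables). In Huh7 GNPTAB fell by 0.28 with both drugs (authors' deposited table). MBTPS1 fell in the same comparisons, and a link between the 2 genes was not tested. Of the 7, 4 rose and 2 fell with both drugs in Hep3B (median 0.77), 4 rose and 1 fell with sorafenib (median 0.21), and 2 rose and 2 fell with both drugs in Huh7 (median 0.12). Among all genes tested, 35.8% rose and 35.8% fell with both drugs in Hep3B, 22.9% rose and 28.1% fell with sorafenib there, and 34.9% rose and 26% fell with both drugs in Huh7. In the remaining comparisons 0 of the 7 were called. Of all genes tested, 7.12% rose and 3.64% fell with GW3965 in Hep3B. In Huh7 1.94% rose and 1.21% fell in the group labelled sorafenib, and 13.4% rose and 17.5% fell in the group labelled GW3965. The eighth gene, CREB3L1, named after its values were seen, was under the minimum over both lines but not in Huh7, where its mean log2 CPM was 2.61 in the table of both drugs and 1.90 in the table labelled GW3965 (authors' deposited tables). CREB3L1 rose in Huh7 by 1.75 with both drugs (edgeR FDR = 4.35e-24) and by 0.67 in the group labelled GW3965 (edgeR FDR = 0.0454) in the authors' deposited tables, and 1.75 was the largest change of the 8 with both drugs in Huh7. Of the receptor genes, NR1H3, which encodes LXR alpha, rose by 0.49 with both drugs, 0.38 with sorafenib and 0.91 with GW3965 in Hep3B, and by 0.57 in the Huh7 group labelled sorafenib, in the authors' deposited tables. RXRA, a partner receptor gene, fell by 0.60 with both drugs in Hep3B and rose by 0.65 in the Huh7 group labelled GW3965 in the authors' deposited tables.

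The genes most like SREBF1 and INSIG1 were those with the smallest root mean square difference of log2 fold changes over the 6 comparisons, among 11443 genes of at least 2 CPM. This is a description, since the 6 comparisons share DMSO libraries. For SREBF1 they were MYLIP (0.298), SCD (0.403), LPCAT3 (0.416), ACACA (0.492) and FASN (0.492). MYLIP, an LXR target that encodes a ubiquitin ligase, stood at 1.25 with both drugs and 1.87 with GW3965 in Hep3B in the authors' deposited tables, where SREBF1 stood at 1.30 with both drugs and 1.96 with GW3965. For INSIG1, ACSL3 (0.310), SCD (0.411), STARD4 (0.411) and DHCR7 (0.412) were among the 5 nearest. ACSL3, a fatty acyl-CoA synthetase gene, stood at 0.14 with both drugs, -1.63 with sorafenib and 1.35 with GW3965 in Hep3B in the authors' deposited tables.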

How the data were processed

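The deposited tables hold the authors' edgeR comparisons of RefSeq transcripts. Per the file headers, a table holds the mean level on the log2 scale (CPM) and the log2 fold change of a drug group over DMSO. Deposited with them are a p-value and its FDR, a mark for 1 representative transcript a gene, and how many libraries had a nonzero count. The submitters' processing notes list edgeR without a version, beside hg19 and GRCh37 as builds. Not given in the sources used here are the aligner, how reads were counted and normalized, and which edgeR test was run. The tables analysed hold no library's own values, so depth and spread per library are unknown, and precision is known only through the p-value. The FDR equals Benjamini-Hochberg adjustment over all 32321 transcripts in 6 of 6 tables.

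Representative rows were used, except for levels of INSIG1 per kb, and calls were made at an FDR under 0.05. Group levels were solved from the mean level, the fold change and the numbers of libraries. DMSO levels were averaged geometrically over the 3 tables of a line. For 11 contrasts between fold changes, 2 of them added after the data were seen, the standard error of a fold change was its size over the normal score of its p-value. It was replaced by the median of 20 expression bins where p was above 0.5, and that median was also its lower limit. The contrasts were tested with a two-sided z test over representative transcripts of at least 2 CPM. The counts the authors started from were not analysed here, so a count model was not run. Promoter windows and transcript lengths came from RefSeq and GENCODE v29 on GRCh38. Work was done in Python 3.11.15 with numpy 2.4.6, pandas 2.3.3, scipy 1.17.1 and matplotlib 3.10.9.

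Members and gene lists were chosen with earlier results of these data known. Some genes of the original lists are not reported here, and the list counts leave them out. Besides the 7 genes, the text names the label check genes, up to 3 called genes per list and comparison with the largest changes, and the 5 genes nearest to SREBF1 and to INSIG1. Other named genes, such as cell type markers, were chosen as labels of their list or after their values were seen. Alternatives were a stricter FDR, subtraction of the median gene, other handling of standard errors, adjustment over representative transcripts alone and a variance shared through DMSO. The transcript row with the highest mean level, and no minimum level, were also tried.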

Additional observations from a re-analysis of the deposited data

Results flagged for a closer look

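The responses of the lines differed, by the approximate test of the difference of log2 fold changes (Hep3B minus Huh7, adjusted over all genes tested), in 11 results under the same label. For the label GW3965 these were SREBF1 (2.03, adjusted p = 6.17e-67) and INSIG1 (1.26, adjusted p = 7.01e-21). Under the label sorafenib they were SREBF1 (-2.50, adjusted p = 4.52e-76), INSIG1 (-2.37, adjusted p = 7.04e-35), SREBF2 (-0.51, adjusted p = 0.00193), MBTPS2 (0.41, adjusted p = 0.00768) and MBTPS1 (-0.37, adjusted p = 0.0277). With both drugs they were MBTPS1 (-0.65, adjusted p = 2.38e-05), SREBF1 (0.49, adjusted p = 1.95e-04), SCAP (0.38, adjusted p = 0.00623) and INSIG1 (-0.56, adjusted p = 0.0110). The first 7 rest on the Huh7 groups whose labels go against ABCG1 and DUSP6, so line and label cannot be told apart there, and the 4 with both drugs do not rest on those groups. Of all genes tested, 24.8% differed for the label GW3965, 35.9% for the label sorafenib and 44% with both drugs. The counts of 2 of 7 for the label GW3965 and 4 of 7 with both drugs are near those shares.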

How the results depend on the processing

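Of 74 alternatives to the main counts, 70 stayed within 1.5 times the main count. The count of members departing from the sum of single drugs in Hep3B was 1 at an FDR of 0.01, against 4. The count differing between both drugs and the Huh7 group labelled sorafenib was 5 where part of each variance was assigned to the shared DMSO libraries, against 3. The share of all genes called under that setting is not given here. The count differing between Hep3B with GW3965 and Huh7 labelled sorafenib was 0, against 1, both at an FDR of 0.01 and after subtraction of the median gene. Of 614 alternatives to single values or list counts, 588 kept their direction and call. Some of these could not change a call. Taking the transcript row with the highest mean level gave back the main value in 42 of them. In the comparisons with DMSO, subtracting the median gene left the FDR as deposited, so only the size or sign could change. Neither setting could change the main counts of those comparisons. The 588 and the 70 therefore overstate how far the calls were tested. Subtracting the median gene turned the sign of 7 values that passed no test: MBTPS1 with GW3965 in Hep3B (-0.0029), INSIG2 with both drugs in Huh7 (-0.037), MBTPS2 with both drugs against sorafenib in Hep3B (-0.017), INSIG2 (-0.0064) with both drugs against labelled GW3965 in Huh7, INSIG1 (-0.074) with both drugs against labelled sorafenib in Huh7, and the Huh7 departures of SCAP (-0.038) and INSIG2 (-0.10). The same subtraction ended the call by giving 0.29 (adjusted p = 0.0772) for SREBF2 with both drugs against labelled GW3965 in Huh7, and the cause was not tested. No paired analysis was possible because the tables hold no values of single libraries, and for the same reason no replicate could be left out. Depth per library is unknown. A missed threshold does not show equal responses.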
